A study of Sus scrofa with 19 samples.

Results

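The 10 genes described here form a group that cardiomyocytes are known to switch with stretch and load: ANKRD1, XIRP1, XIRP2, CSRP3, NRAP, FHL1, FHL2, RCAN1, GDF15 and MEF2C. They were chosen by name, with earlier results of these data known, and were looked up by symbol among the 25879 genes of the deposited count tables. A symbol in the authors' own table identified 9 of them, and XIRP1, whose row has no symbol there, was identified by its Ensembl ID in a gene-name list. All 10 were therefore found, and 9 passed the filter on low counts. GDF15 did not, with between 0 and 11 counts per library.

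A beating cardiomyocyte senses load at a few places of its contractile lattice. The Z-disc and the spring region of titin hold proteins such as CSRP3 (muscle LIM protein), the FHL proteins and ANKRD1 (cardiac ankyrin repeat protein), some of which also enter the nucleus, and the intercalated disc, where neighbouring cells join, holds NRAP and the Xin proteins encoded by XIRP1 and XIRP2. Calcium that enters the cell activates the phosphatase calcineurin, whose inhibitor RCAN1 is itself induced by calcineurin signalling, and the transcription factor MEF2C acts with the same signals. GDF15 is a secreted stress hormone. Several of these genes are widely used as readouts of hypertrophy and of wall stress.

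Left ventricular myocardium of large white pigs, all female by the labels, was studied by poly(A) RNA sequencing, with 1 library from each of 19 pigs in 5 groups. DOX (n = 5) received doxorubicin and MYO (n = 5) its liposomal form Myocet, both at 60 mg/m2 in 3 cycles, and both were followed for 3 months. RemoLV (n = 3) had a reperfused infarction after 90 min of coronary occlusion, Hyper (n = 3) a narrowed aortic isthmus, and Control (n = 3) is called sham-operated in the sample descriptions and untreated in the study's methods. These 9 pigs were followed for 6 months. The anterior wall was sampled in every group except RemoLV, where the posterior wall, away from the infarct, was taken. No group was pooled, no pig carried a transgene, and the DOX and MYO data came from an earlier study of the same laboratory, so that treatment, follow-up time and series of libraries cannot be told apart for these 10 libraries. Total counts per library ranged from 9527710 to 20370209, with a median of 14527230. Levels are given in CPM, counts relative to a common library size that edgeR's TMM factors adjust, and in whole tissue fewer cells of a type and less RNA per cell cannot be told apart.

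Several libraries go against their names or stand apart. The sample names in the authors' expression table match the count files by content, and for 8 of 19 columns the matching file carries another group's label: the table's Control columns are the files labelled RemoLV, its RemoLV columns the files labelled Control, and 1 DOX and 1 MYO library trade places. Which names are right was not settled here. Groups here follow the file labels, and each comparison was repeated with the table names. The 3 libraries labelled RemoLV have the marker pattern of atrial rather than ventricular muscle. In them MYL2, the ventricular regulatory light chain, stood at 18.58 to 115.3 CPM, against 8975 to 18077 CPM over the other groups, and MYL4, the atrial essential light chain, at 6029 to 8130 CPM, against 0.5496 to 21.9 CPM. All 8 tested atrial markers were higher and all 6 ventricular markers lower than in Control (edgeR quasi-likelihood test), while BMP10 and MYBPHL, atrial markers too low to be tested, were near 0 there, at up to 0.1692 and 0.4457 CPM. The Y-chromosome gene DDX3Y was at 96.09 to 176.7 CPM in all 10 anthracycline libraries and at no more than 0.1374 CPM in the other 9, although the labels call all pigs female. What this signal stands for cannot be told apart from treatment when DOX or MYO is compared with any of the other groups. DOX library 1 had 597.4 CPM of the immediate-early gene FOS, where the other 4 DOX libraries had 3.666 to 14.33 CPM. TMM factors were 0.7349 and 0.6963 in Control libraries 1 and 3 and between 0.8345 and 1.178 in the 17 others, so that scaling by library totals alone moves the median gene to a log2 fold change of 0.45 for DOX, 0.44 for MYO, 0.52 for RemoLV and 0.17 for Hyper, each vs. Control, from 0.01 to 0.03.

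To show the DNA next to the genes the results turn on, 250 bases before the annotated RefSeq gene start are printed for 3 of them, read from Sscrofa11.1, the assembly the counts were made on. ANKRD1 and XIRP1 had lower levels in the libraries labelled RemoLV than in every other library, and CSRP3, which encodes muscle LIM protein, did not. The ANKRD1 window lies at chr14:102612858-102613107 on the minus strand, that of XIRP1 at chr13:23876851-23877100 on the minus strand, and that of CSRP3 at chr2:40219038-40219287 on the plus strand. Capitals mark matches, on either strand, to the M-CAT core CATTCC, bound by TEAD factors, the GATA site AGATAA, the TATA box TATAAA, and the MEF2 site and the CArG box by their usual consensus.
ANKRD1: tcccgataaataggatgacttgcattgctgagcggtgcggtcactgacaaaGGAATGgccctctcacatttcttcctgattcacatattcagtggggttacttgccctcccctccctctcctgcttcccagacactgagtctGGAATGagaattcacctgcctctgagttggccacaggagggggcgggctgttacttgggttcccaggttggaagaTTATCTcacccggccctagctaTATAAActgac
XIRP1: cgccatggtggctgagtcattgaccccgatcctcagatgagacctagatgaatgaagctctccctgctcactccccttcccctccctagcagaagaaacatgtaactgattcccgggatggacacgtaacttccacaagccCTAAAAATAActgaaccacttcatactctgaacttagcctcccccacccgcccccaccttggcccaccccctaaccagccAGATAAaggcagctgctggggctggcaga
CSRP3: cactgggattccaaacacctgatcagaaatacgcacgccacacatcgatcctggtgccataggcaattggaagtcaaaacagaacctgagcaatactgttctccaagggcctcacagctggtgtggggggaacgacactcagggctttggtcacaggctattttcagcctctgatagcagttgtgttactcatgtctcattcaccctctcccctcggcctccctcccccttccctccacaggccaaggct
The ANKRD1 window holds 2 M-CAT cores, which begin 199 and 108 bases before the gene start, a GATA site at 33 bases and a TATA box at 11 bases. In the XIRP1 window, a MEF2 match begins at 109 bases and a GATA match at 29 bases. None of these letters occurred in the CSRP3 window. Of the 10 windows, 2 held an M-CAT core, 2 a GATA site, 2 a TATA box and 1 a MEF2 site, and none a CArG box. Over all 19556 annotated windows of this length the shares were 10.3% for the M-CAT core, 8.08% for the GATA site, 6.15% for the TATA box, 2.55% for the MEF2 site and 1.31% for the CArG box. A match describes letters and says nothing about binding in these hearts.

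Summed over the 10 genes, levels were 7635 to 13922 CPM in Control, 6348 to 16090 CPM in DOX and 5385 to 14586 CPM in MYO. The sum was 7049 to 8168 CPM in Hyper and 3747 to 4579 CPM in the libraries labelled RemoLV. Per kilobase of exon, ANKRD1 had the highest median over all 19 libraries (1891 CPM per kb), followed by CSRP3 (1038 CPM per kb) and NRAP (168.9 CPM per kb). FHL1 and XIRP1 followed at 122.7 and 114.1 CPM per kb. The median of FHL2 was 51.53 CPM per kb and that of RCAN1 30.68 CPM per kb. Lower still were XIRP2 at 10.6 CPM per kb, MEF2C at 10.41 CPM per kb and GDF15 at 0.254 CPM per kb.

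**Figure D1:**
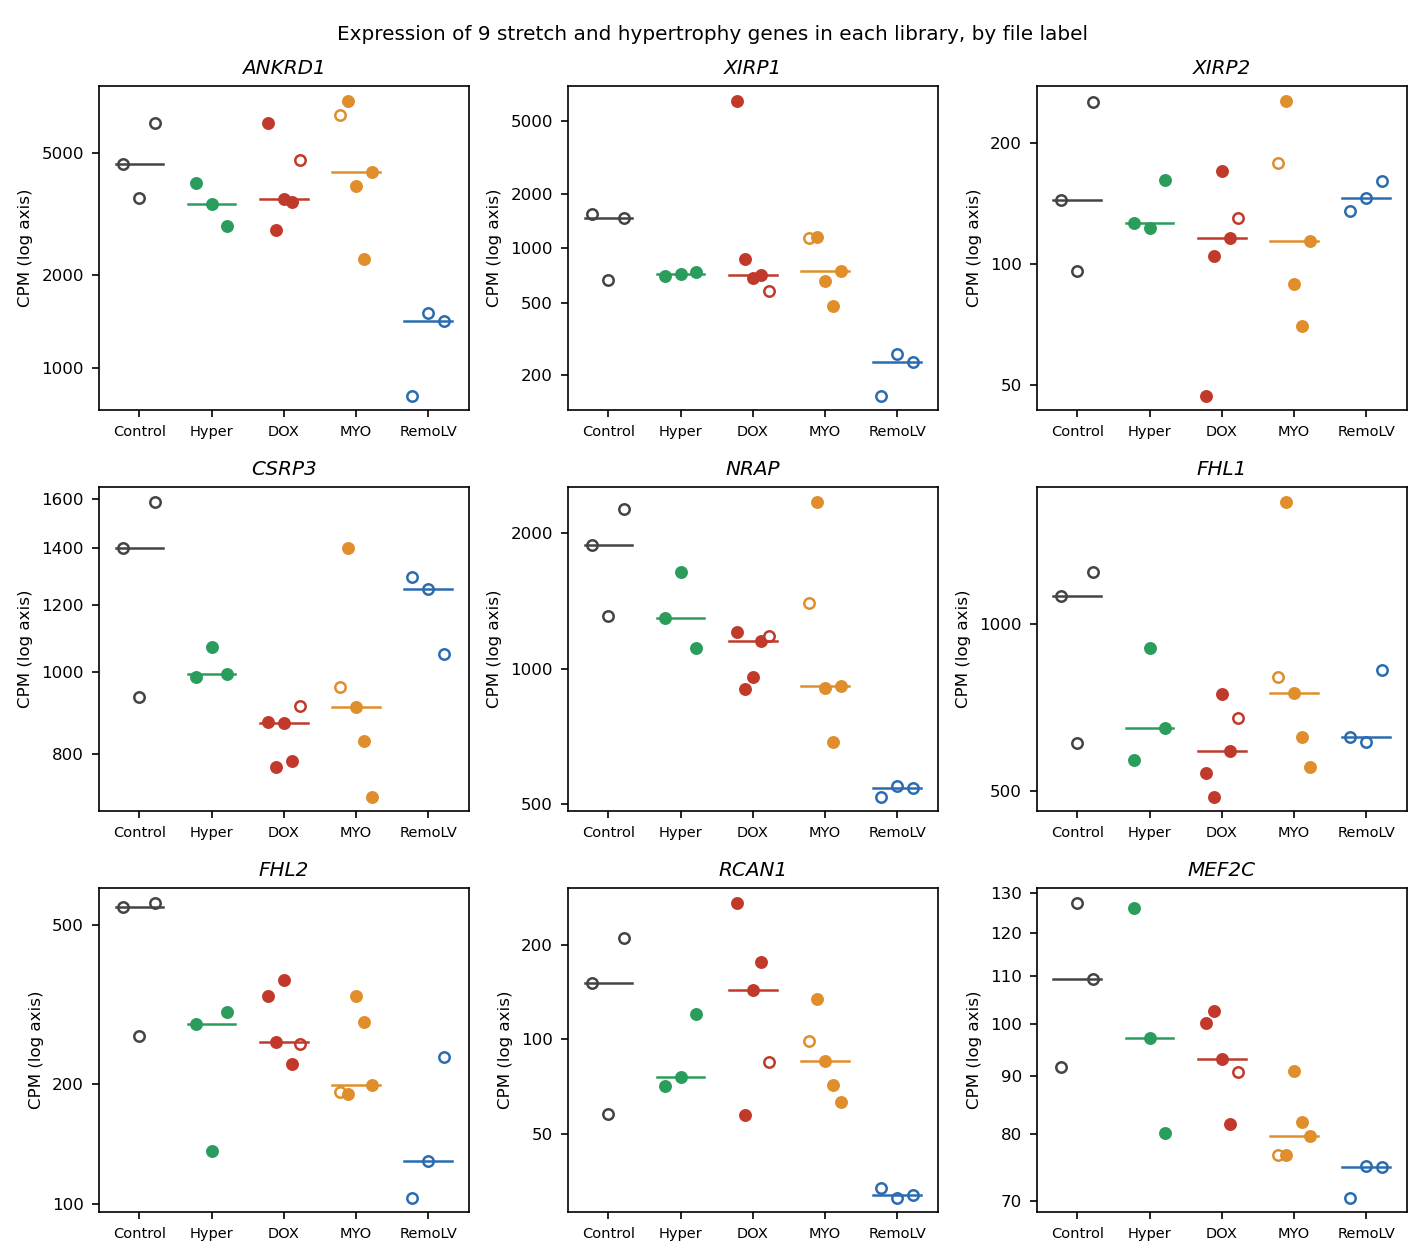
Level of 9 genes in each library, in CPM on a log axis, by file label; horizontal lines are group medians and open symbols are libraries whose name in the authors' table belongs to another group. The 3 libraries labelled RemoLV lie below all 16 others for ANKRD1, XIRP1, NRAP, RCAN1 and, narrowly, MEF2C, and 1 DOX library stands at 6483 CPM for XIRP1.

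The main difference was between the libraries labelled RemoLV and the rest. For 5 of the 9 genes tested (ANKRD1, XIRP1, NRAP, RCAN1 and MEF2C) all 3 of these libraries had lower CPM than each of the 16 others, which was the case for 7.98% of all 13552 genes tested, and for none of the 9 were they all higher, the case for 8.18% of all genes. This split does not depend on which set of names is used. For MEF2C it is narrow and rests on the TMM scaling. Its highest RemoLV value was 75.12 CPM and the lowest other value 76.76 CPM. With library totals alone its log2 fold change in RemoLV vs. Control was -0.09. By file label, 6 of 9 were lower and 0 higher in RemoLV vs. Control at an adjusted p of at most 0.05 (edgeR quasi-likelihood test, Benjamini-Hochberg adjustment over all genes tested), where 24.0% of all genes were lower and 23.1% higher. All 6 had an unadjusted p under 0.05, DESeq2 also called 6 lower, where it had 24.7% of all genes lower and 22.8% higher, and the median log2 fold change of the 9 was -1.57, beside 0.02 for all genes. Against Hyper, the libraries labelled RemoLV were lower for 4 and higher for 0, where 18.6% of all genes were lower and 17.0% higher, and 5 had an unadjusted p under 0.05, while DESeq2 called 4, with 19.1% of all genes lower and 17.5% higher. Beside this result, the summed level of 7 general cardiomyocyte markers was 29225 to 30190 CPM in RemoLV and 32803 to 45278 CPM in Control, and that of 8 fibroblast markers 10730 to 12395 CPM against 2095 to 3489 CPM, with none of either list at 0. The part of the atrial marker pattern, of the sampled wall and of these cell markers in the member values was not tested.

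In the other comparisons with Control few of the genes passed the test. DOX was lower for 2 and higher for 0, with 21.1% of all genes lower and 21.0% higher, and 4 had an unadjusted p under 0.05, while DESeq2 called 3 lower, with 22.4% of all genes lower and 20.7% higher. MYO was also lower for 2 and higher for 0, with 21.7% of all genes lower and 20.7% higher, and 3 had an unadjusted p under 0.05, while DESeq2 called 3 lower, with 23.2% of all genes lower and 20.3% higher. Counts of 2 in 9 are close to those shares. Scaling by library totals alone left 0 calls in DOX, where it had 41.5% of all genes higher and 5.20% lower, and 0 in MYO, where it had 40.6% higher and 5.56% lower. With the replicate number as a block 0 calls were left in DOX, where this fit had 17.5% of all genes higher and 17.9% lower. It is the comparison in which all 3 pairs of libraries with the same number deviated together (correlations of 0.242, 0.158 and 0.117). These numbers are those of the file labels. The authors' table numbers some libraries otherwise, and names Control library 1 as its RemoLV 3. Control library 3 also decided the DOX count, which was 0 without it, and Control library 2 raised it to 4 when left out. Hyper vs. Control gave 0 calls by edgeR and 0 by DESeq2, with 1 unadjusted p under 0.05, and over all genes 0% were called higher and 0% lower by edgeR and 0.819% higher and 1.52% lower by DESeq2. DOX vs. MYO gave 0 by edgeR and by DESeq2, with 1 unadjusted p under 0.05, and again 0% of all genes were higher and 0% lower by edgeR, and 0% higher and 0.0148% lower by DESeq2. The 1 was XIRP1, at 1.16 (95% CI 0.01 to 2.31, edgeR, adjusted p = 0.702), which was -0.23 without DOX library 1.

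**Figure D2:**
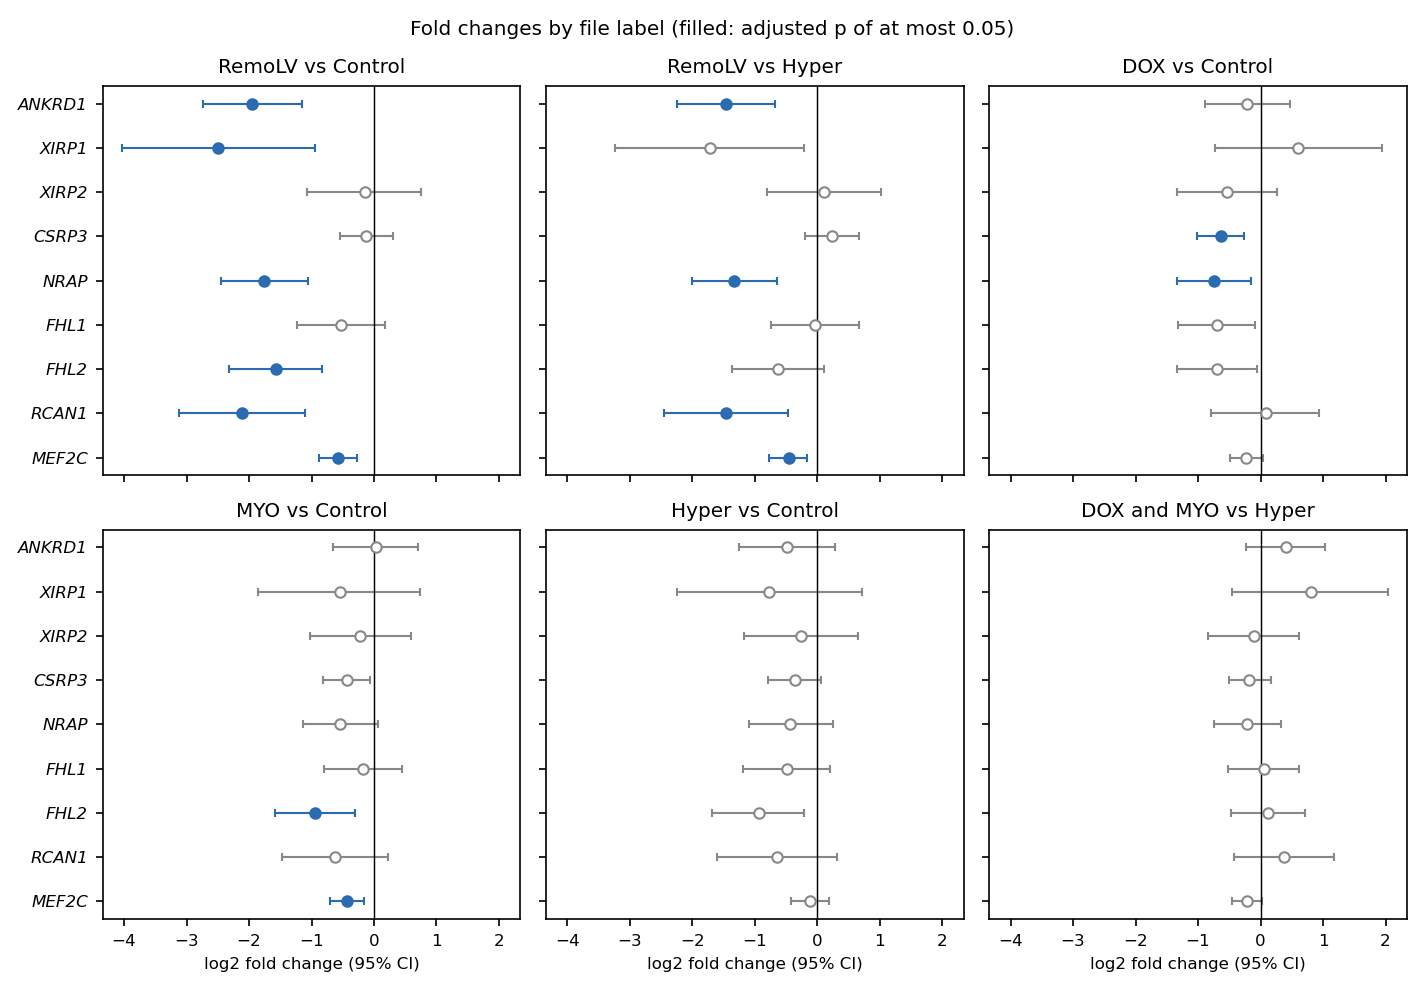
Log2 fold change of 9 genes in 6 comparisons by file label, with 95% confidence intervals from the edgeR quasi-likelihood fit; filled symbols have an adjusted p of at most 0.05. In RemoLV vs. Control, 6 of 9 values are filled and all 6 lie below 0, from -0.58 for MEF2C to -2.49 for XIRP1, and no value is filled in Hyper vs. Control or in DOX and MYO vs. Hyper.

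ANKRD1 encodes the cardiac ankyrin repeat protein, which binds titin in the I-band and moves to the nucleus on stretch. It was expressed at 4598, 3568 and 6220 CPM in the 3 Control libraries and at 811.1, 1504 and 1421 CPM in those labelled RemoLV. The highest RemoLV value was under the lowest of any other group, which was 2252 CPM in a MYO library. The log2 fold change in RemoLV vs. Control was -1.95 ± 0.38 (SE, edgeR quasi-likelihood test, adjusted p = 0.000424), a level 3.85-fold lower. Against the 3 Hyper libraries, at 3970, 3397 and 2893 CPM, it was lower by 1.46 ± 0.37 on the log2 scale (edgeR, adjusted p = 0.00504). DOX libraries held 6241, 2791, 3528, 3452 and 4715 CPM and MYO libraries 6609, 7368, 3880, 2252 and 4330 CPM. Both ranges overlapped that of Control, with log2 fold changes of -0.21 (95% CI -0.89 to 0.47) in DOX, 0.03 (-0.65 to 0.71) in MYO and -0.49 (-1.25 to 0.28) in Hyper.

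The Xin actin-binding repeat proteins tie actin filaments to the adhesion complex of the intercalated disc. XIRP1 was at 1545, 668 and 1475 CPM in Control and at 154.8, 264 and 238.4 CPM in the libraries labelled RemoLV. These groups did not overlap, and the log2 fold change of -2.49 ± 0.74 (edgeR, adjusted p = 0.0102) was the largest drop among the 9 genes in any comparison by file label. Hyper libraries lay close together at 700.2, 725.2 and 736.6 CPM, and RemoLV vs. Hyper gave -1.72 ± 0.72 (edgeR, adjusted p = 0.0712). That comparison passed when only these 2 groups were fitted (edgeR, adjusted p = 0.000264) and with the replicate number as a block (edgeR, adjusted p = 0.0491), in a range of 0.000264 to 0.546 over 14 alternatives.

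In DOX, XIRP1 was at 6483, 874.6, 688.9, 714.7 and 583.3 CPM. Library 1, the one rich in FOS, was more than 7 times any of the other 4, and these 4 lay within the range of Control or under it. With all 5 libraries the log2 fold change in DOX vs. Control was 0.60 ± 0.64 (edgeR, adjusted p = 0.466). Without library 1 it was -0.79 ± 0.29 (edgeR, adjusted p = 0.0374, with a range of 0.000218 to 0.754 over 18 alternatives), so that 1 library set both the direction and the call. MYO libraries had 1141, 1155, 664.1, 480.3 and 750.8 CPM, with -0.55 (95% CI -1.85 to 0.74) vs. Control. Part of the spread in Control came from library 2, at 668 CPM, the lowest Control library for 8 of the 9 genes.

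XIRP2, the other Xin gene, did not pass the edgeR test in any comparison by file label. It ranged from 96.09 to 251.6 CPM in Control, 135.5 to 160.7 CPM in the libraries labelled RemoLV, 47.12 to 170.5 CPM in DOX, 70.29 to 254 CPM in MYO and 123 to 161.1 CPM in Hyper. In RemoLV vs. Control its log2 fold change was -0.15 (95% CI -1.07 to 0.76). The lowest value of all, 47.12 CPM, was in DOX library 1, the library in which XIRP1 was highest.

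**Figure D3:**
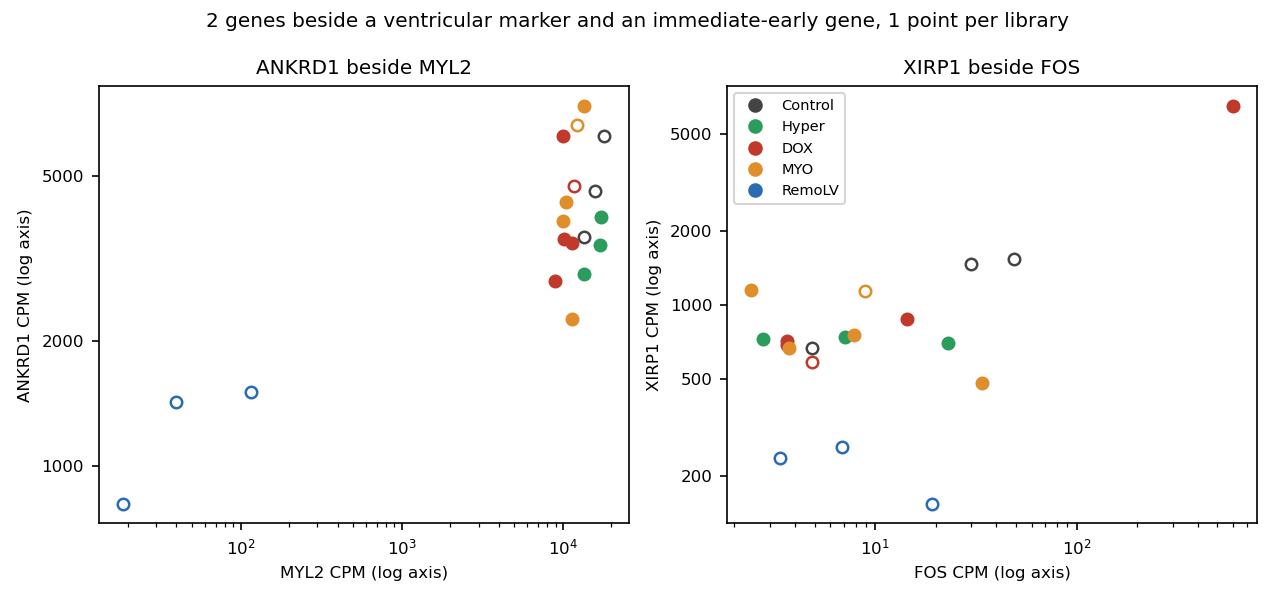
ANKRD1 against MYL2, a ventricular marker, and XIRP1 against FOS, an immediate-early gene, in CPM on log axes with 1 point per library; open symbols are libraries whose name in the authors' table belongs to another group. The libraries labelled RemoLV lie alone at low MYL2 (18.58 to 115.3 CPM) and low ANKRD1 (811.1 to 1504 CPM), and DOX library 1 lies alone at 597.4 CPM of FOS and 6483 CPM of XIRP1.

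NRAP, the nebulin-related anchoring protein, helps to assemble myofibrils and sits at the intercalated disc. Control libraries had 1878, 1310 and 2260 CPM and those labelled RemoLV 519.4, 549.2 and 542.8 CPM. The RemoLV values varied by only 2.92% (coefficient of variation, n = 3) and lay below every other library. The log2 fold change was -1.76 ± 0.33 vs. Control (edgeR, adjusted p = 0.000336) and -1.33 ± 0.33 vs. Hyper (edgeR, adjusted p = 0.00398), where the Hyper libraries had 1295, 1640 and 1110 CPM. NRAP was also 1 of the 2 genes lower in DOX vs. Control, with all 5 libraries (1204, 902.5, 959.8, 1153 and 1184 CPM) below the lowest Control value. That log2 fold change, -0.75 ± 0.28 (edgeR, adjusted p = 0.0407), lost its call on leaving out DOX library 2, 3 or 4 or Control library 1 or 3, with adjusted p up to 0.2, and also with the replicate number as a block (edgeR, adjusted p = 0.152), without the RemoLV libraries in the fit (0.0573) and with library totals alone (0.337). MYO libraries spread from 686.9 to 2347 CPM, with -0.54 (95% CI -1.13 to 0.06), and without MYO library 2, the highest, NRAP was lower there too (-0.90, edgeR, adjusted p = 0.00314, with a range of 0.00314 to 0.75 over 17 alternatives).

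CSRP3 encodes muscle LIM protein, a Z-disc protein of the stretch-sensing apparatus. Its values were 1399, 932.4 and 1587 CPM in Control, and 872, 772.3, 869.6, 784.9 and 911.2 CPM in DOX. Every DOX library was below every Control library, and the log2 fold change was -0.63 ± 0.18 (edgeR, adjusted p = 0.0087). Without Control library 3 the adjusted p was 0.081, with the replicate number as a block 0.0552 and with library totals alone 0.299, within a range of 0.00108 to 0.299 over 17 alternatives. In MYO, at 958.3, 1400, 908.4, 829.2 and 712 CPM, the value of -0.44 ± 0.18 missed the threshold by edgeR (adjusted p = 0.0538) and passed it by DESeq2 (adjusted p = 0.0361), and it passed by edgeR without MYO library 2 (-0.62) or without Control library 2 (-0.64). Unlike ANKRD1, XIRP1 and NRAP, CSRP3 did not separate the libraries labelled RemoLV, at 1292, 1253 and 1049 CPM, from Control (-0.12, 95% CI -0.55 to 0.30). With library totals alone this became a higher level in RemoLV, by 0.42 (edgeR, adjusted p = 0.0211), and RemoLV vs. Hyper went from 0.24 to a call at 0.58 (edgeR, adjusted p = 0.00457).

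FHL1 and FHL2 encode proteins of repeated LIM domains that bind titin, and FHL2 is also known as a cofactor that restrains calcineurin. FHL2 was at 554.5, 263.7 and 568.7 CPM in Control and at 103.7, 128.5 and 233.6 CPM in the libraries labelled RemoLV. The groups did not overlap, but the highest RemoLV value came close to that of Control library 2. The log2 fold change in RemoLV vs. Control was -1.57 ± 0.36 (edgeR, adjusted p = 0.00149). MYO libraries had 191, 188.2, 331.8, 286.2 and 198.2 CPM, a log2 fold change of -0.95 ± 0.30 (edgeR, adjusted p = 0.0179) with 2 of 5 libraries above the lowest Control value. Without Control library 1 or 3 the MYO call was lost (edgeR, adjusted p up to 0.103, in a range of 0.00349 to 0.22 over 17 alternatives). DOX gave -0.70 ± 0.31 (edgeR, adjusted p = 0.0742) and Hyper -0.94 ± 0.35 (edgeR, adjusted p = 0.189), and without Control library 2 both passed, at -0.98 and -1.23. FHL2 was the only one of the 9 with an unadjusted p under 0.05 in Hyper vs. Control.

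FHL1 passed the edgeR test in none of the comparisons by file label when all libraries were used. It was at 1125, 610.3 and 1241 CPM in Control, 626.6, 614 and 827 CPM in the libraries labelled RemoLV and 538.7, 489.1, 750.1, 591.5 and 679 CPM in DOX. All 3 groups overlapped through Control library 2. In DOX vs. Control the log2 fold change of -0.70 ± 0.29 had an adjusted p of 0.0616 by edgeR and of 0.0404 by DESeq2. It also passed by edgeR without Control library 2 (adjusted p = 0.0162) and when only these groups were fitted (adjusted p = 0.0381), in a range of 0.0162 to 0.803 over 17 alternatives. MYO library 2 was far above the other MYO libraries, at 1662 CPM against 554.2 to 803.1 CPM.

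Calcineurin is inhibited by RCAN1, the regulator of calcineurin. RCAN1 was at 150.7, 58.02 and 209.4 CPM in Control and at 33.57, 31.36 and 31.91 CPM in the libraries labelled RemoLV. These 3 values had a coefficient of variation of 3.565%, and all were below the 57.41 CPM of the lowest other library. The log2 fold change was -2.11 ± 0.48 vs. Control (edgeR, adjusted p = 0.00165) and -1.46 ± 0.47 vs. Hyper (edgeR, adjusted p = 0.0221), where the Hyper libraries had 71.04, 75.64 and 120.5 CPM. Leaving out any RemoLV library, or Hyper library 3, took the Hyper comparison past the threshold, to adjusted p of up to 0.0847. DOX spread from 57.41 to 272.1 CPM, the latter in library 1, and MYO from 63.37 to 134.5 CPM. Both overlapped Control, with 0.08 (95% CI -0.79 to 0.94) in DOX and -0.62 (-1.47 to 0.23) in MYO.

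MEF2C is a transcription factor of cardiac development and of the hypertrophic response. Over all 19 libraries it had the smallest coefficient of variation of the 9 genes, 18.21%. Control libraries had 91.66, 109.5 and 127.6 CPM, MYO libraries 76.76, 76.76, 90.84, 82.06 and 79.7 CPM, and those labelled RemoLV 70.44, 75.12 and 74.88 CPM. Neither MYO nor RemoLV overlapped Control. The log2 fold change was -0.43 ± 0.13 in MYO vs. Control (edgeR, adjusted p = 0.0113) and -0.58 ± 0.14 in RemoLV vs. Control (edgeR, adjusted p = 0.00322). With library totals alone these shrank to -0.03 and -0.09, and neither passed. The MYO call was also lost without Control library 2 (edgeR, adjusted p = 0.0717) and with the replicate number as a block (edgeR, adjusted p = 0.0578), in a range of 0.00347 to 0.902 over 17 alternatives. DOX libraries, at 100.2, 102.5, 93.18, 81.71 and 90.75 CPM, gave -0.23 (95% CI -0.49 to 0.04). Hyper spread over 126.3, 97.09 and 80.32 CPM, and RemoLV vs. Hyper gave -0.46 ± 0.14 (edgeR, adjusted p = 0.0179), lost without RemoLV library 1 or Hyper library 1, with library totals alone (-0.11, edgeR, adjusted p = 0.653) and when only these groups were fitted (edgeR, adjusted p = 0.0575).

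GDF15, a secreted member of the TGF-β superfamily, was close to undetectable. Its total was 11 counts over the 3 Control libraries, 27 over the 5 DOX, 26 over the 5 MYO, 9 over the 3 Hyper and 2 over the 3 labelled RemoLV. DOX libraries had 10, 2, 11, 2 and 2 counts and MYO libraries 5, 6, 4, 6 and 5 counts. No comparison was made, since differences of a few counts were not detectable at this depth.

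Because both Xin genes and both FHL genes are counted in each library, their ratio does not depend on how libraries are scaled. The log2 ratio of XIRP1 to XIRP2 was 2.92 ± 0.45 (SD, n = 3) in Control, 3.39 ± 2.11 (n = 5) in DOX, 2.65 ± 0.27 (n = 5) in MYO, 2.40 ± 0.19 (n = 3) in Hyper and 0.54 ± 0.33 (n = 3) in the libraries labelled RemoLV. RemoLV values of 0.19 to 0.86 did not reach the 2.55 to 3.42 of Control, a difference of -2.38 (exact 2-sided permutation test, p = 0.1, the smallest that 3 libraries against 3 can give). The log2 ratio of FHL2 to FHL1 was -1.12 ± 0.09 (SD, n = 3) in Control and -2.22 ± 0.38 (n = 3) in RemoLV, again without overlap and at the smallest possible p (difference -1.10, exact 2-sided permutation test, p = 0.1). It was -1.10 ± 0.31 (n = 5) in DOX, -1.80 ± 0.84 (n = 5) in MYO and -1.62 ± 0.97 (n = 3) in Hyper. The lowest MYO library, at -3.14, lay below the lowest RemoLV library, at -2.59. The other 8 ratio comparisons had p of 0.179 or more by the same exact test, and after adjustment over all 10 none was under 0.5. In Hyper, 1 library had an FHL2 to FHL1 ratio of -2.74 and the other 2 were near those of Control.

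**Figure D4:**
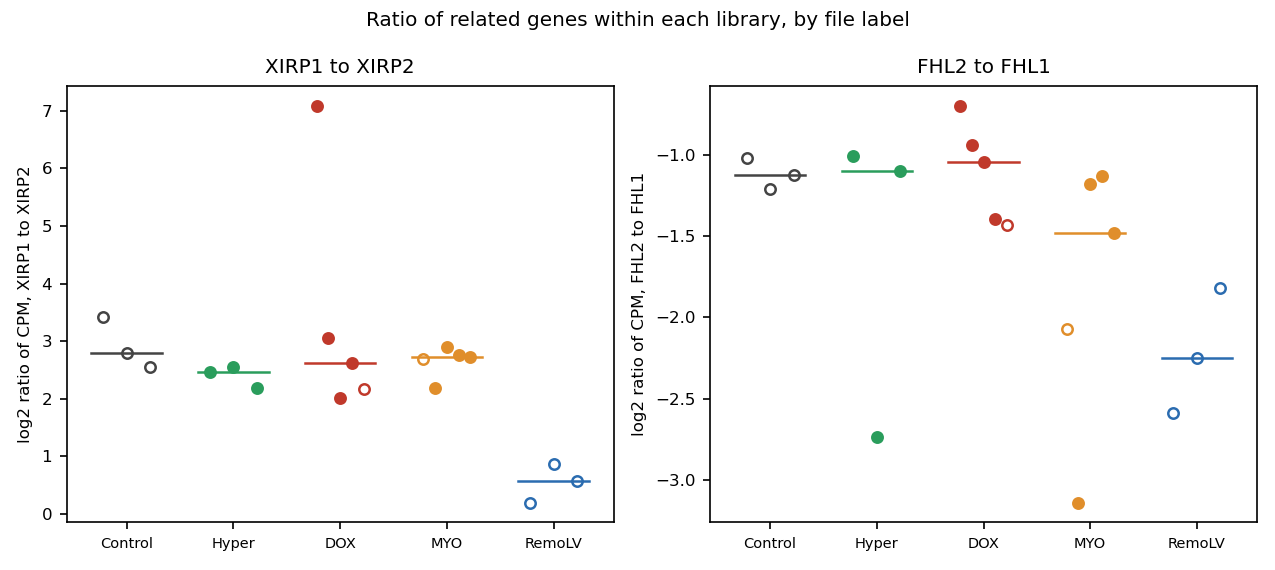
Log2 ratio of XIRP1 to XIRP2 and of FHL2 to FHL1 in each library by file label, from CPM plus 0.5; horizontal lines are group medians and open symbols are libraries whose name in the authors' table belongs to another group. The XIRP1 to XIRP2 ratio is 0.19 to 0.86 in the 3 libraries labelled RemoLV and at least 2.01 in all others, with DOX library 1 at 7.09.

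DOX and MYO together can be set against Hyper without regard to the names, since no library moves between these sides. None of the 9 genes passed (0 by edgeR, 0 by DESeq2, 0 with an unadjusted p under 0.05), where 15.8% of all genes were higher and 16.9% lower by edgeR and 16.6% higher and 17.6% lower by DESeq2. The median log2 fold change of the 9 was 0.05, beside 0.03 for all genes. The intervals were widest for XIRP1, 0.80 (95% CI -0.45 to 2.04), which was 0.09 without DOX library 1, and narrowest for MEF2C, -0.22 (-0.46 to 0.03). ANKRD1 differed by 0.40 (-0.23 to 1.03), NRAP by -0.21 (-0.75 to 0.32) and CSRP3 by -0.18 (-0.51 to 0.16). MEF2C passed without Hyper library 3 (-0.36, edgeR, adjusted p = 0.0273, in a range of 0.0273 to 0.916 over 22 alternatives).

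With the table names the libraries labelled RemoLV become the Control group, and 21 values of the 9 genes that were called under either set of names changed direction. DOX vs. Control then had 4 of 9 genes higher and 1 lower, with 15.0% of all genes higher and 14.6% lower. ANKRD1 rose by 1.86 ± 0.36, XIRP1 by 3.18 ± 0.68, NRAP by 1.06 ± 0.30 and RCAN1 by 2.21 ± 0.45 on the log2 scale, and CSRP3 fell by 0.49 (edgeR, adjusted p from 0.000767 to 0.0467). Without DOX library 1, XIRP1 was higher by 1.95 ± 0.31 (edgeR, adjusted p = 0.000218). MYO vs. Control had 4 higher and 0 lower, with 14.8% of all genes higher and 14.4% lower, namely ANKRD1 (1.86), XIRP1 (1.73), NRAP (1.17) and RCAN1 (1.45). Hyper vs. Control had 4 higher and 0 lower, with 18.7% of all genes higher and 17.2% lower, namely ANKRD1 (1.46), NRAP (1.33), RCAN1 (1.46) and MEF2C (0.46). In RemoLV vs. Control the 6 genes that were lower by file label were higher, with 24.0% of all genes higher and 23.2% lower, and RemoLV vs. Hyper gave 0 calls (edgeR; 1 unadjusted p under 0.05), as did 0% of all genes in either direction. CSRP3 in DOX was the only one of the 9 called in the same direction vs. Control under both sets of names (-0.63 and -0.49). All 4 comparisons under the table names share the same 3 Control libraries, as do the 4 by file label.

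**Figure D5:**
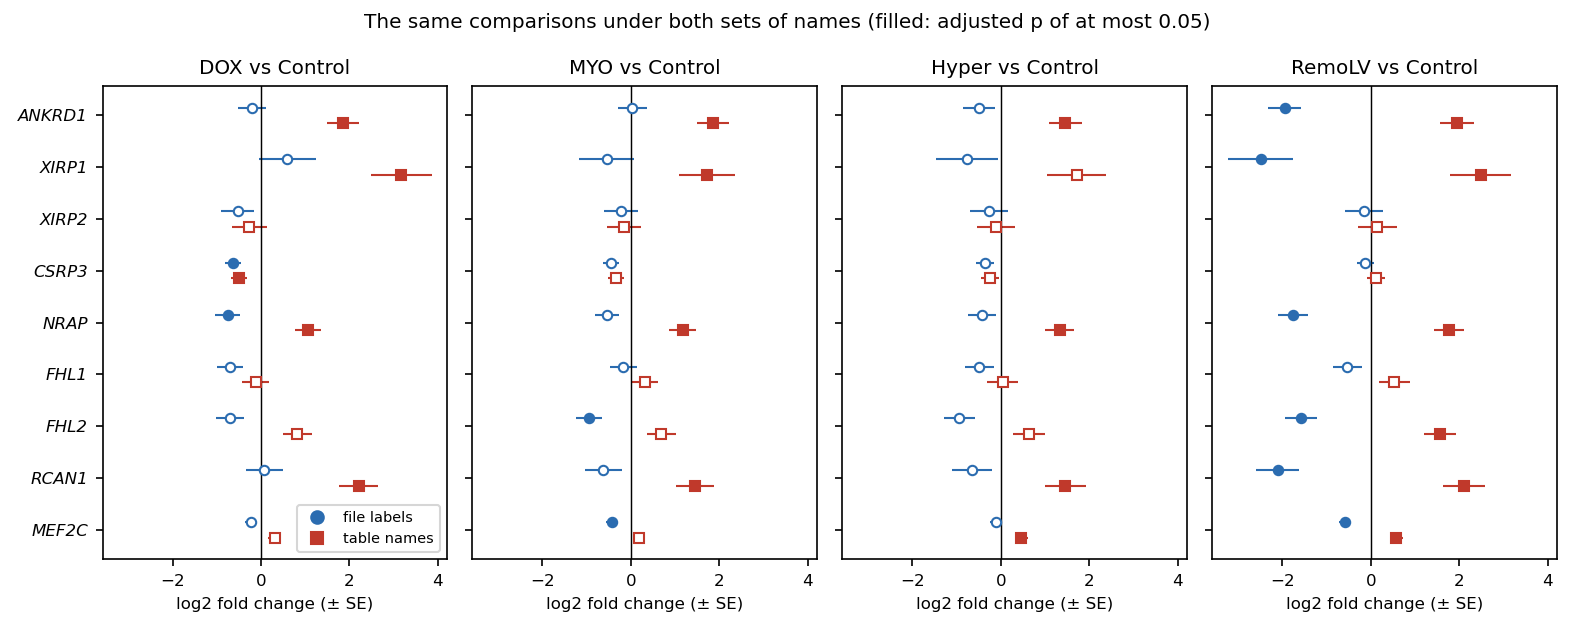
Log2 fold change vs. Control of 9 genes with the groups named by the count files (circles) and by the authors' table (squares), with SE; filled symbols have an adjusted p of at most 0.05 by the edgeR quasi-likelihood test. ANKRD1 in DOX lies at -0.21 by file label and at 1.86 by table name, whereas CSRP3 in DOX lies below 0 under both.

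Related genes outside the 10 were described from 6 lists, by file label. Their counts stand beside shares over all genes of 24.0% lower and 23.1% higher in RemoLV, 21.1% lower and 21.0% higher in DOX, and 21.7% lower and 20.7% higher in MYO, each against Control, and a gene named as lowest or highest is so among the called genes of its list. With the replicate block 17.5% of all genes were higher and 17.9% lower in DOX. With library totals alone the shares over all genes were 7.66% lower and 45.6% higher in RemoLV, 5.20% and 41.5% in DOX, and 5.56% and 40.6% in MYO. Of 15 tested relatives in the Z-disc, ankyrin repeat and LIM families, 7 were lower and 1 higher in RemoLV vs. Control, with a median of -0.93, and library totals alone gave 5 lower and 3 higher. The lowest was ANKRD2, a stretch-induced sister of ANKRD1 that is typical of slow skeletal muscle, with 44, 21 and 104 counts in Control and 2, 0 and 1 counts in RemoLV (edgeR, adjusted p = 0.00302). The 1 that rose was FHL3, another FHL protein (1.36 ± 0.31, edgeR, adjusted p = 0.00146). In DOX the same list had 3 lower and 2 higher, against 2 lower and 4 higher with library totals alone, and MYPN, which encodes the Z-disc protein myopalladin, was the lowest of the called genes (-1.02 ± 0.23). In MYO 5 were lower and 1 higher, against 2 lower and 6 higher with library totals alone, and FHL5 was lowest (-1.22 ± 0.30).

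Of 12 tested genes of calcineurin and its regulators, 7 were lower and 4 higher in DOX and 7 lower and 2 higher in MYO, with medians of -0.53 and -0.48. With library totals alone these counts were 2 lower and 5 higher in both, and the replicate block left 3 higher in DOX. RCAN2, a paralogue of RCAN1, was the lowest in DOX (-0.85 ± 0.11, edgeR, adjusted p = 1.92e-05) and CABIN1, a calcineurin-binding inhibitor, the highest in both DOX (0.76 ± 0.12) and MYO (0.71 ± 0.12). RemoLV vs. Control had 4 in each direction, among them RCAN2 (-0.98 ± 0.13) and RCAN3 (1.09 ± 0.24), and library totals alone gave 2 lower and 6 higher. Among 12 MEF2 factors, class IIa histone deacetylases and their kinases, 3 were higher and 3 lower in DOX, 4 and 3 in MYO, and 2 and 3 in RemoLV, whereas library totals alone gave 6 and 0, 6 and 0, and 5 and 1, and the replicate block left 1 lower in DOX. HDAC4, which represses MEF2, was the highest in all 3 (1.00, 0.90 and 1.08), and CAMK2D, the main cardiac calmodulin-dependent kinase, the lowest in all 3 (-0.64, -0.69 and -1.05).

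Of 10 cardiac transcription factors and coactivators, 4 were higher and 2 lower in DOX, 3 and 3 in MYO, and 2 and 2 in RemoLV, and library totals alone gave 7 and 1, 4 and 2, and 5 and 0, and the replicate block left 1 lower in DOX. TEAD1, which binds the M-CAT motif, was the lowest in DOX (-1.41 ± 0.27, edgeR, adjusted p = 0.000664) and MYO (-1.51 ± 0.28, edgeR, adjusted p = 0.000382), and NKX2-5 the highest in both (1.08 and 1.03). TBX5 was the highest in RemoLV (1.73 ± 0.23), and it is also in the atrial marker list. Of 8 tested genes of the ATF4 and p53 stress responses, 4 were lower in RemoLV, led by TRIB3 (-2.99 ± 0.86), and 3 lower and 2 higher in DOX, against 2 lower and 1 higher in RemoLV and 1 lower and 2 higher in DOX with library totals alone and 2 lower and 1 higher in DOX with the replicate block. The highest in DOX was ATF3 (4.15 ± 1.48, edgeR, adjusted p = 0.0314), and without DOX library 1 it was 0.33 (edgeR, adjusted p = 0.712), and the replicate block gave an adjusted p of 0.116. SESN2, a p53 target, was the lowest in both DOX (-1.86 ± 0.59) and MYO (-1.57 ± 0.59), where 1 Control library held 268 counts and the other 2 held 51 and 12. In DOX its call was lost with the replicate block (edgeR, adjusted p = 0.0746). MYO had 3 lower and 1 higher of this list. With library totals alone MYO had 0 lower and 1 higher, so SESN2 was not called lower there.

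The fetal gene list had 4 tested genes, of which 2 were higher and 0 lower in DOX, 1 higher and 0 lower in MYO, and 2 higher and 2 lower in RemoLV, while library totals alone had 2 higher in MYO and the replicate block 1 higher in DOX. The call lost with the block was ACTC1, cardiac actin (1.10 ± 0.42, edgeR, adjusted p = 0.0423, and 0.0535 with the block). NPPB, which encodes B-type natriuretic peptide, stood at 2.986, 0.5345 and 0.8463 CPM in Control and at 0.6183, 2.559 and 1.81 CPM in Hyper. It was at 7.548 to 41.85 CPM in DOX, 14.38 to 201.9 CPM in MYO and 19.56 to 46.98 CPM in the libraries labelled RemoLV, none of which overlapped Control. Its log2 fold change was 4.13 ± 0.98 in DOX, 5.43 ± 1.01 in MYO and 4.45 ± 1.02 in RemoLV (edgeR, adjusted p from 0.000446 to 0.00281). The MYO value rested in part on library 2, the one at 201.9 CPM, and was 4.19 ± 0.70 without it (edgeR, adjusted p = 0.000259). Over 16 alternatives the adjusted p ranged from 6.4e-09 (DESeq2) to 0.323 (edgeR). Without Control library 1 it was 6.47. With the table names NPPB did not pass in MYO (1.00, edgeR, adjusted p = 0.323) or DOX (-0.36, edgeR, adjusted p = 0.734), and RemoLV vs. Control was -4.45. ACTA1, skeletal actin, was lower in RemoLV (-2.30 ± 0.24, edgeR, adjusted p = 1.25e-06). In Hyper vs. Control none of these 6 lists had a call by edgeR, with between 0 and 5 genes of each at an unadjusted p under 0.05, while DESeq2 called 1 gene of the Z-disc and LIM list lower, 1 of the MEF2 list higher and 3 of the stress list lower, with 0.819% of all genes higher and 1.52% lower.

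Likeness of pattern over the 19 libraries was measured as the mean absolute difference of centred log2 CPM, for genes whose group medians spanned at least 1 on the log2 scale, among 9855 genes with a symbol and a mean log2 CPM of at least 2. NRAP was closest to MYOT (0.17), SAMD4A (0.20) and CRYAB (0.21). For ANKRD1 they were RUBCN (0.26), GPAT4 (0.28) and HOMER2 (0.28), and for FHL2 ETV6 (0.26), PTPN1 (0.28) and LOC100152566 (0.28). XIRP1 and RCAN1 shared CCND2 (0.35 and 0.34) and DNAJA4 (0.38 and 0.34) among their 3 closest, with DNAJB5 (0.35) added for XIRP1 and GPAT4 (0.35) for RCAN1. Group medians of XIRP2, CSRP3, FHL1 and MEF2C spanned less than 1, so no gene was named for them.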

How the data were processed

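Per the labels and the study's methods, the authors aligned paired-end reads to Sscrofa11.1 with STAR, counted them per Ensembl gene with HTSeq 0.11.1, and deposited raw whole-number counts, 1 file per pig. A table of 14744 genes, deposited by the authors as well, has log2-like expression values per sample, which served here only to match its 19 column names to the count files, and log2 fold changes and adjusted p-values of their own DESeq2 comparisons, which were not used. Reads were assigned in HTSeq's union mode with reverse strand, in which a read over more than 1 gene is counted for none by default. Aligner settings are not given in the sources used here.

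In R 4.3.3 with edgeR 4.0.16, counts were scaled by TMM and filtered by filterByExpr, which left 13552 genes. All 5 groups were fitted in 1 quasi-likelihood model (glmQLFit, glmQLFTest) without a block, and p-values were adjusted over all genes tested by the Benjamini-Hochberg method. A call is an adjusted p of at most 0.05 with no limit on the fold. Standard errors and 95% intervals come from that fit. Each of the 4 treated groups was compared with Control, RemoLV and the pooled DOX and MYO libraries with Hyper, and DOX with MYO. Ratios used CPM plus a pseudocount of 0.5 and exact 2-sided permutation tests over libraries. Gene symbols came from the authors' table or, where empty there, from a gene-name list by Ensembl ID. Sequences and exon lengths came from the RefSeq annotation of Sscrofa11.1. The fit was tested on simulated data.

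The 10 genes and all lists were chosen with earlier results of these data known. Named were all 10 genes, MYL2, MYL4 and DDX3Y, for each list and comparison with Control the called genes with the largest positive and negative fold change, and up to 3 genes closest in pattern, as described. BMP10, FOS and DOX library 1's other values were named after they were seen. Alternatives were DESeq2 1.42.0, its size factors in edgeR, library totals alone, a minimum of 10 counts in every library, no filter, only the groups compared, the replicate number as a block, the table names, leaving out each library, a pseudocount of 1 for the ratios and, chosen after seeing the data, a fit without the RemoLV libraries and, for XIRP1, the table names without DOX library 1. No 2 replicates were alike within counting noise (the lowest mean chi-square per gene was 13.1, against 1 for noise alone). The replicate numbers come from the labels, which tie them to no litter, batch or day. Same-numbered Control and DOX libraries deviated together in all 3 pairs (correlations over 0.1), so the blocked values stand beside the DOX results they change, and no other 2 groups did so in all pairs. Counting intervals cover counting error only and were not used for tests. Between 9527710 and 20370209 counts per library lie behind each value. Python 3.11.15 with pandas 2.3.3 made the tables.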

Additional observations from a re-analysis of the deposited data

Results flagged for a closer look

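In groups of 5 libraries the highest or lowest value was compared with its neighbours by Dixon's criterion for each of the 9 tested genes, and 2 of 18 checks stood apart, where chance gives about 1 in 20. XIRP1 in DOX was highest in library 1, at 6483 CPM, with the other 4 at 583.3 to 874.6 CPM. FHL1 in MYO was highest in library 2, at 1662 CPM, with the other 4 at 554.2 to 803.1 CPM. DOX library 1 was also the highest DOX library for ANKRD1, NRAP and RCAN1 and held 597.4 CPM of FOS, and MYO library 2 was the highest MYO library for 7 of the 9 genes.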

How the results depend on the processing

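The 6 genes called in RemoLV vs. Control numbered 6 under every alternative, leaving out each library included, but with library totals alone MEF2C was lost (-0.09) and CSRP3 turned to 0.42, higher. With the table names, called values changed sign: in DOX vs. Control ANKRD1 was 1.86 and NRAP 1.06. In MYO vs. Control XIRP1 was 1.73, NRAP 1.17, FHL2 0.69, RCAN1 1.45 and MEF2C 0.19. In RemoLV vs. Control ANKRD1 was 1.95, XIRP1 2.49, NRAP 1.76, FHL2 1.57, RCAN1 2.11 and MEF2C 0.58. In Hyper vs. Control ANKRD1 was 1.46, NRAP 1.33, RCAN1 1.46 and MEF2C 0.46, and in RemoLV vs. Hyper ANKRD1 was 0.49, NRAP 0.43, RCAN1 0.65 and MEF2C 0.11. The XIRP1 to XIRP2 ratio in MYO vs. Control was 2.01 (exact 2-sided permutation test, p = 0.0179, the smallest that 5 libraries against 3 allow). Called genes then numbered 5 in DOX, 4 in MYO, 4 in Hyper and 0 in RemoLV vs. Hyper. The cause of these changes is the change of names itself.

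Called genes numbered 0 in DOX and 0 in MYO with library totals alone, and 1 in DOX without RemoLV in the fit. Leaving out 1 library gave 0 to 4 in DOX, 1 to 4 in MYO, 0 to 1 in Hyper vs. Control, 2 to 4 in RemoLV vs. Hyper and 0 to 1 in DOX and MYO vs. Hyper, and XIRP1 in DOX moved from -0.79 to 0.83. In MYO the 4 came without MYO library 2, in RemoLV vs. Hyper the 2 without RemoLV library 1, in Hyper the 1 without Control library 2, and in DOX and MYO vs. Hyper the 1 without Hyper library 3. Why was not tested. With a replicate block, 0 were called in DOX, where all 3 pairs with Control deviated together (0.117 to 0.242) and each correlated best with its own number, and 1 in MYO, where no pair with Control reached 0.1. Over all group pairs, 4 of 32 same-numbered pairs were above 0.1 (range -0.246 to 0.242) and 8 correlated best with their own number. With the minimum of 10 counts and no filter every count of calls stayed within 1.5 times. At 0 to 11 counts per library, GDF15 is limited by depth, and with 3 libraries against 3 the exact permutation tests of the ratios cannot go below p = 0.1.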
